A study of Mus musculus with 16 samples.

Results

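The DNA replication genes described here were 36 mouse genes whose products license and open replication origins, copy and join DNA strands, supply deoxynucleotides or bring cells into S phase. Each gene was read from its brightest probe set among those whose only gene symbol in the platform annotation was that gene. Of the 36 genes, 33 had such a probe set (44 probe sets in all) and Gins1, Pole and Tyms had none. Of the 33, 32 were bright enough to test, among 7455 genes tested and 8251 genes that had a probe set to themselves. The remaining gene, Mcm6, was above the floor on 4 of the 16 arrays and is given by its values.

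The 16 samples were mouse epithelium from the ileum, where the small intestine ends, cut out by laser capture. Their RNA went through 2 rounds of amplification before hybridisation to Affymetrix MG_U74Av2 oligonucleotide arrays. By their titles, 6 arrays were WT, 5 were adenoma (a benign tumour of the epithelium) and 5 were carcinoma (an invasive tumour). The series was titled as a profile of a transition of the epithelium, so adenoma and carcinoma were each compared with WT and with each other. Strain, genotype, the tumour-causing allele or agent, age, sex, how the captured regions were picked and how many animals were used are not stated in the labels. Since no label says which animal an array came from, the p-values measure the spread between these arrays, and they are too small if arrays of a group shared an animal.

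In a dividing cell the origin recognition complex, Cdc6 and Cdt1 load the MCM helicase ring onto DNA, and Cdc45 and the GINS complex then turn the ring into a moving helicase. DNA polymerase alpha with primase starts each strand, the clamp loader places the sliding clamp that holds the later polymerases on DNA, and a flap endonuclease and a ligase finish the lagging strand. In the intestine these genes are known for their use in the dividing cells of the crypts, while the villus cells have left the cell cycle.

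The replication genes held few changes that passed the test. In adenoma against WT, 1 of 32 genes passed (3.12%, beside 8.28% of all genes tested), and this was Fen1, the flap endonuclease of Okazaki fragment processing, which fell 1.90-fold. In carcinoma against WT, 1 of 32 genes passed (3.12%, beside 9.05% of all genes tested), and this was Pcna, the sliding clamp, which rose 2.16-fold. In carcinoma against adenoma, 0 of 32 genes passed with limma after Benjamini-Hochberg adjustment over all genes (beside 0.0268%, which was 2 genes, both lower), and 0 of 32 had an unadjusted p under 0.05 (beside 2.48%). At an unadjusted p under 0.05, 6 of 32 genes (18.8%, beside 23%) were found in adenoma against WT: Mcm3, Pcna and Rpa1 with higher means, and Dut, Fen1 and Rpa2 with lower means. In carcinoma against WT, 6 of 32 genes (18.8%, beside 23.9%) were found: Cdc6, Mcm3, Mcm4, Pcna and Rpa1 with higher means and Fen1 with a lower mean. Both comparisons used the same 6 WT arrays, so their likeness is no independent evidence.

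The fitted values of the 32 genes lay on both sides of zero. All fold changes here and below are on the log2 scale of intensities with values under 46.9 (5.55 on the log2 scale) set to that floor. The median log2 fold change of the replication genes in adenoma against WT was 0.01 (range -1.19 to 0.93), beside -0.14 over all genes tested, and 16 of 32 were above 0 (50%, beside 40.1%). In carcinoma against WT it was 0.06 (range -0.81 to 1.26), beside -0.14, and 17 of 32 were above 0 (53.1%, beside 41.1%). In carcinoma against adenoma it was 0.17 (range -0.31 to 0.58), beside 0.01, and 28 of 32 were above 0 (87.5%, beside 50.8%). The pooled SD of the median of these genes between arrays of a group was 0.19, about as large as this last shift, and the 32 genes share the same arrays. No gene had tumour values clear of the WT range in adenoma (0 of 32, beside 5.79% of all genes), and 1 of 32 did in carcinoma (3.12%, beside 6.28%), which was Pcna. Between carcinoma and adenoma 0 of 32 had ranges that did not overlap (beside 0.537%).

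The scaling of the arrays moved all genes together. Of all genes called in adenoma against WT, 300 were higher (4.02%) and 317 lower (4.25%), so that 48.6% of calls were higher, and this share became 62.6% after quantile normalization and 75.8% with array medians aligned. In carcinoma 310 were higher (4.16%) and 365 lower (4.9%), a share of 45.9% that became 58.8% and 73.7%. The median of all genes moved from -0.14 to -0.02 and 0.12 in adenoma, and from -0.14 to -0.01 and 0.15 in carcinoma. The median of the replication genes moved with it, to 0.15 and 0.31 in adenoma and to 0.24 and 0.39 in carcinoma. In adenoma this median was below 0 with the Gapdh ratio as covariate (-0.14), without the WT arrays brightest in spike-in signal (-0.07), with the mean of probe sets (-0.03), with spike-in signal as covariate (-0.02) and, with the floor at the 10th percentile or no filter, at -0.01, so no direction is given for it.

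**Figure D1:**
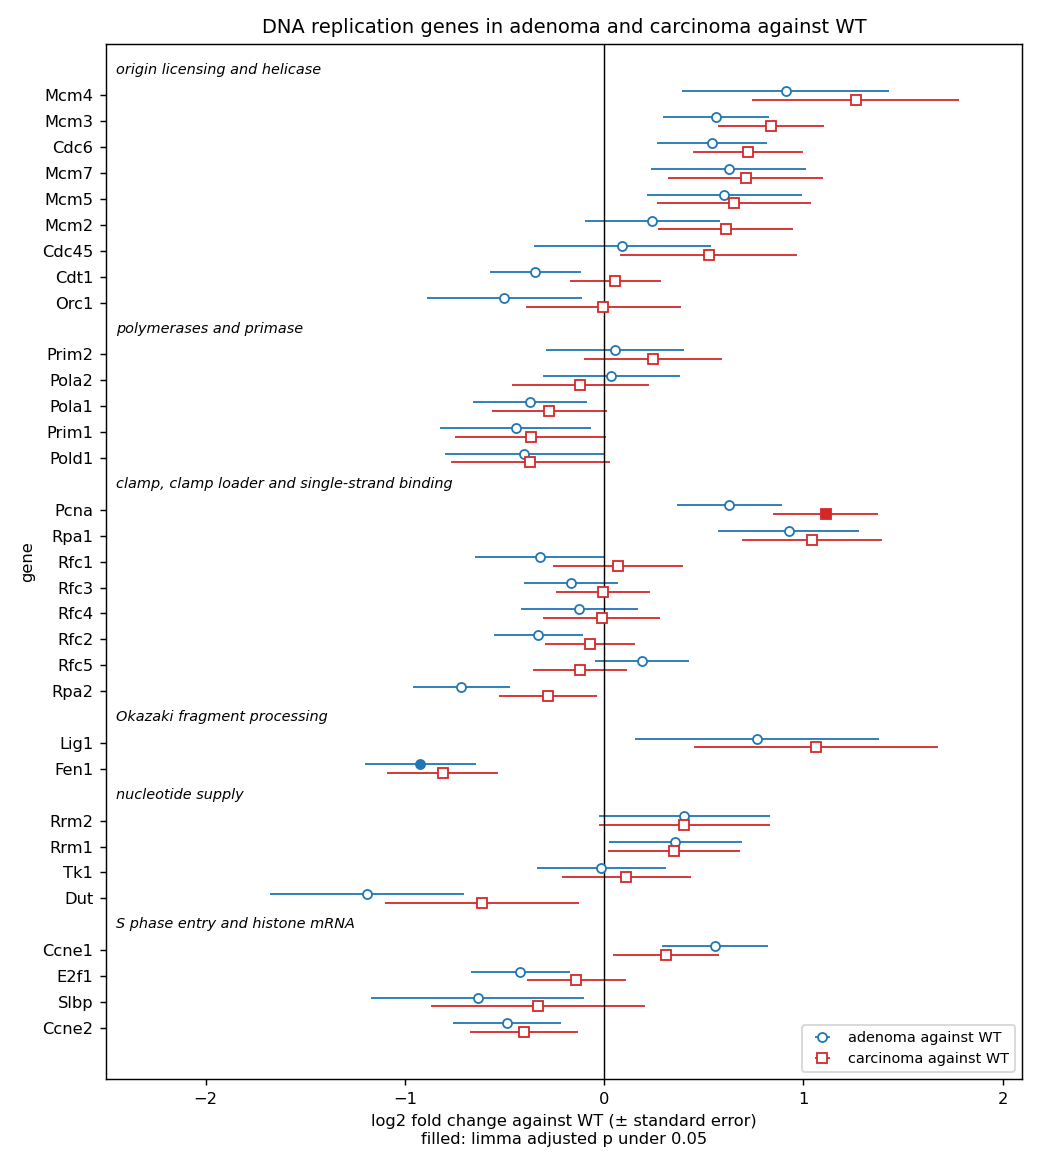
Log2 fold change (x axis, points) with its standard error (bars) of each of the 32 tested replication genes (y axis, grouped by role) in adenoma (blue circles, n = 5) and carcinoma (red squares, n = 5) against WT (n = 6), with filled symbols for genes past a limma adjusted p of 0.05. The filled symbols are Fen1 in adenoma at -0.92 and Pcna in carcinoma at 1.11. Of the 9 origin licensing and helicase genes, 7 lie above 0 in adenoma (beside 40.1% of all genes tested) and 8 in carcinoma (beside 41.1%).

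The genes of origin licensing and of the helicase had the highest median of the role groups in the fit as reported, and none of them passed the test. Of 11 such genes 9 were tested, and their median log2 fold change was 0.54 in adenoma and 0.65 in carcinoma against WT and 0.35 in carcinoma against adenoma. In adenoma 7 of 9 lay above 0 (beside 40.1% of all genes tested), in carcinoma 8 of 9 (beside 41.1%), and between the tumours 9 of 9 (beside 50.8%). These counts against WT were the same after quantile normalization (7 and 8), and 7 and 9 with array medians aligned. As the median deviation from the WT mean over these 9 genes, the 6 WT arrays ran from -0.29 to 0.46, the adenoma arrays from 0.02 to 0.56 and the carcinoma arrays from 0.34 to 0.78. The highest WT array, WT 6, lay inside the range of both tumours, so the groups overlapped. Without the 4 WT arrays brightest in spike-in signal described below, the median was 0.11 in adenoma (6 of 9 above 0) and 0.48 in carcinoma (7 of 9), and with the Gapdh ratio as covariate it was -0.02 (4 of 9) and 0.28 (8 of 9). With that covariate the medians of nucleotide supply (0.39 and 0.60) and of S phase entry (0.21 and 0.31) were higher. With spike-in signal as covariate the median was 0.15 and 0.39, under the 0.24 and 0.44 of the Okazaki genes, and with the floor at the 40th percentile the Okazaki role was also higher in adenoma (0.46, from Lig1 alone), so the rank was not kept.

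Promoter windows were searched for the binding sequence of the E2F factors, since several of these genes are textbook E2F targets in S phase. A window ran from 250 bases before to 50 bases after the gene's start in RefSeq's table of assembly GRCm38.p6, and TTTCCCGC, TTTGGCGC, TTTCGCGC and TTTGCCGC were searched on both strands, where matches may overlap one another. Windows were found for 30 of the 36 genes. A match was present in 11 of these 30 genes (36.67%), beside 704 of all 27025 genes with a window (2.605%). Among the origin licensing and helicase genes 7 of 9 (77.78%) held one, and among the other replication genes 4 of 21 (19.05%), which were Lig1, Pola1, Pold1 and Rfc3. The 7 are shown because this role group had the highest median fold change in the fit as reported, each as 30 bases around 1 match on the gene's strand, 5′ to 3′, with the match in capitals. The stretches lie at chr1:20820275-20820304 (minus strand) for Mcm3, chr8:75109345-75109374 (plus) for Mcm5, chr1:128359797-128359826 (minus) for Mcm6, chr5:138172030-138172059 (minus) for Mcm7, chr11:98908002-98908031 (plus) for Cdc6, chr8:122568035-122568064 (plus) for Cdt1 and chr4:108579416-108579445 (plus) for Orc1. The capitals lie upstream of the annotated start, except those of Mcm3 and Cdt1, which begin at positions 20 and 33 after it.
Mcm3: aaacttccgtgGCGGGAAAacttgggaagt
Mcm5: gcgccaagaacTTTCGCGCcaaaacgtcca
Mcm6: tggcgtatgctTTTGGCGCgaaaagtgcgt
Mcm7: aatttcgaaccGCGGGAAAcagggtgtcca
Cdc6: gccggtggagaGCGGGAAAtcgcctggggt
Cdt1: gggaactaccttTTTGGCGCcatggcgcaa
Orc1: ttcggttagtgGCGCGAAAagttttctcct
A match is a description of the letters in the window. Of these 7 genes, Mcm3, Mcm5, Mcm7 and Cdc6 had higher means in both tumours than in WT, and Mcm6, Orc1 and Cdt1 did not in their brightest probe sets. Mcm2 and Cdc45 held no match and also had higher means in both tumours. Of the 4 genes with a match in other roles, Lig1 had higher means in both tumours, and Pola1, Pold1 and Rfc3 had lower means in both. The genes not matched to a window were Ccne2, Gins1, Mcm4, Pole, Prim2 and Rfc2.

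Mcm3, a subunit of the helicase ring, came closest to the threshold in this group. On the log2 scale its 6 WT arrays ran from 9.61 over a median of 10.34 to 11.07. The adenoma arrays 1 to 5 read 10.37, 10.95, 11.22, 10.72 and 10.93. The carcinoma arrays 1 to 5 read 10.96, 11.17, 11.43, 10.82 and 11.21. Array WT 1 was the highest of WT, and only it reached into the carcinoma range, while adenoma overlapped WT more widely. Mcm3 was higher by 0.56 ± 0.27 (SE) in adenoma (limma adjusted p = 0.216) and by 0.84 ± 0.27 in carcinoma (adjusted p = 0.0575), and neither passed. The carcinoma difference passed without WT 1 (0.997, adjusted p = 0.02) and, for example, with array medians aligned (1.16, adjusted p = 0.0141). The second probe set of Mcm3 gave 0.67 ± 0.28 in adenoma and 0.85 ± 0.28 in carcinoma (adjusted p = 0.0644) when every probe set was fitted as a feature of its own, a fit added after seeing the data.

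Cdc6, the loader that helps to place the helicase ring, had WT values from 8.26 over a median of 8.91 to 9.40. Adenoma arrays 1 to 5 read 9.24, 9.28, 9.93, 8.92 and 9.82, and carcinoma arrays read 9.90, 9.60, 9.87, 9.09 and 9.64. Only carcinoma 4 lay inside the WT range among the carcinoma arrays, and 3 of 5 adenoma arrays did. The difference was 0.54 ± 0.27 in adenoma (adjusted p = 0.25) and 0.72 ± 0.27 in carcinoma (adjusted p = 0.11), so neither passed. With array medians aligned the carcinoma difference was 1.05 and passed (adjusted p = 0.0437).

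The other subunits of the ring are given because they form a complex with Mcm3, and were added to the named genes after their values were seen. Mcm4 ran from 5.73 over a median of 7.92 to 9.54 in WT, and the spread among WT arrays was the widest of the tested subunits. Its adenoma arrays read 8.79, 8.23, 9.11, 7.61 and 9.43, and its carcinoma arrays 9.38, 8.78, 9.64, 9.23 and 7.90. WT 6, at 9.54, lay among the highest tumour arrays, and WT 2 and WT 4 lay above the lowest array of each tumour. The difference was 0.91 ± 0.52 in adenoma (adjusted p = 0.312) and 1.26 ± 0.52 in carcinoma (adjusted p = 0.14), and without WT 6 the carcinoma difference was 1.63 and passed (adjusted p = 0.0347). Mcm2 had WT values from 7.81 to 9.46, adenoma values from 8.99 to 9.86 and carcinoma values from 8.77 to 10.28. Mcm5 had WT values from 8.31 to 9.81, adenoma values from 8.60 to 10.56 and carcinoma values from 8.74 to 10.61. Mcm7 had WT values from 5.75 to 8.11, adenoma values from 7.70 to 8.49 and carcinoma values from 7.53 to 9.07. In these 3 subunits the groups overlapped and the lowest array was a WT array. Their differences in carcinoma were 0.61 ± 0.34 for Mcm2, 0.65 ± 0.39 for Mcm5 and 0.71 ± 0.39 for Mcm7, with adjusted p from 0.274 to 0.314. The second probe set of Mcm5 gave 0.10 ± 0.39 in adenoma and -0.37 ± 0.39 in carcinoma. This probe set was dimmer, with group means from 6.04 to 6.51, and was above the floor on 13 arrays. Both of its differences were smaller than their standard errors, so no direction is read from it.

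Mcm6, the sixth subunit, went the other way from its partners in the values on the arrays. Its intensity was above the floor of 46.9 on WT 1 (176), WT 2 (50), WT 4 (139) and WT 6 (88), and below it on WT 3, WT 5 and all 10 tumour arrays. Of these WT arrays, WT 1, WT 2 and WT 4 are among the 4 of high spike-in signal. The low end of the arrays differed too. The 25th percentile of a single array ran from 45.4 to 72.9 in WT and from 24.4 to 53.6 in the tumours. On WT 2 it was 72.9, above the Mcm6 value of that array. Its part in the lower values of dim genes such as Mcm6, Ccne2, Dut and Fen1 was not tested. With no filter the difference was -0.75 ± 0.31 in both tumours (adjusted p = 0.171 in adenoma and 0.161 in carcinoma). With the floor at the 10th percentile it was -1.92 ± 0.50 in adenoma (adjusted p = 0.0298) and -1.53 ± 0.50 in carcinoma (adjusted p = 0.0744). Since Mcm6 was above the floor of 46.9 on WT arrays alone, no call is read from these fits.

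**Figure D2:**
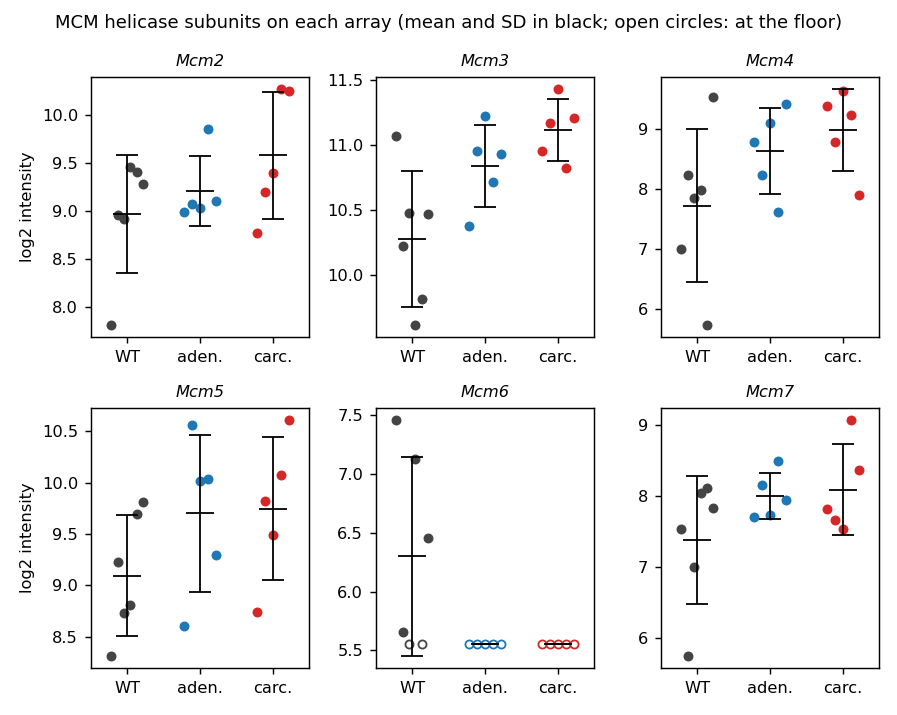
Log2 intensity (y axis, 1 panel per MCM subunit) on each array of WT (black, n = 6), adenoma (blue, n = 5) and carcinoma (red, n = 5), with the mean and SD as black lines and open circles for arrays at the floor of 5.55. In Mcm2, Mcm3, Mcm4, Mcm5 and Mcm7 the lowest array is a WT array and the groups overlap, and in Mcm6 all 10 tumour arrays sit at the floor with 4 WT arrays above it.

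The remaining licensing genes did not pass the test, and the probe sets of Cdt1 differed. Cdt1, which helps to load the ring, was at -0.34 ± 0.23 in adenoma and 0.06 ± 0.23 in carcinoma in its brightest probe set, and at 0.67 ± 0.36 and 0.83 ± 0.36 in the other (adjusted p = 0.171 in carcinoma). These probe sets differed by more than their standard errors, so no direction is given for Cdt1. The counts of licensing genes above 0 used its brightest probe set. Orc1, a subunit of the origin recognition complex, was at -0.50 ± 0.39 and -0.00 ± 0.39. Cdc45, part of the active helicase, was at 0.09 ± 0.44 and 0.53 ± 0.44, with a 95% interval in carcinoma from -0.40 to 1.46.

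Polymerase and primase genes had medians below WT, and no gene passed the test. The median log2 fold change of the 5 tested genes was -0.37 in adenoma and -0.27 in carcinoma, beside -0.14 over all genes tested in each. In adenoma 2 of 5 lay above 0, near the 40.1% of all genes, and in carcinoma 1 of 5, beside 41.1%. With array medians aligned the medians were -0.08 and 0.05, and with spike-in signal as covariate they were 0.04 and 0.23, with 4 of 5 genes above 0 in each tumour, so this direction was kept in neither tumour. Pola1, the catalytic subunit of polymerase alpha, had WT values from 7.83 over a median of 7.94 to 8.47. Its adenoma arrays read 7.47, 8.09, 7.88, 8.16 and 6.73 and its carcinoma arrays 7.41, 7.78, 8.43, 7.22 and 7.96. WT was narrow, and the tumour arrays lay within its range or below it. The difference was -0.37 ± 0.29 in adenoma (adjusted p = 0.462) and -0.27 ± 0.29 in carcinoma (adjusted p = 0.588). Prim1, the catalytic primase subunit, had WT values from 7.05 over a median of 7.53 to 8.18. Its adenoma arrays read 5.92, 7.35, 6.42, 8.34 and 7.68 and its carcinoma arrays 6.41, 7.29, 6.97, 7.81 and 7.59. Adenoma 1, adenoma 3, carcinoma 1 and carcinoma 3 lay below every WT array and the others did not. The difference was -0.44 ± 0.38 (adjusted p = 0.505) and -0.37 ± 0.38 (adjusted p = 0.583). The large primase subunit Prim2, the polymerase alpha subunit Pola2 and the polymerase delta catalytic subunit Pold1 had differences against WT between -0.40 and 0.25 in their brightest probe sets. None of these passed. The second probe set of Pold1 gave -0.73 ± 0.31 in adenoma and -0.43 ± 0.31 in carcinoma, and that of Pola2 gave -0.28 ± 0.36 and -0.31 ± 0.36.

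Among the clamp, the clamp loader and the single-strand binding protein, Pcna rose in carcinoma. Pcna is the ring that tethers polymerases to DNA and is widely used as a marker of dividing cells. Its WT arrays ran from 11.08 over a median of 11.77 to 12.39. Adenoma arrays 1 to 5 read 12.43, 12.04, 12.45, 12.33 and 12.76. Carcinoma arrays 1 to 5 read 13.11, 12.76, 12.67, 13.17 and 12.73. Every carcinoma array lay above every WT array, while adenoma 2 and adenoma 4 lay below the highest WT array, WT 6. Pcna was 2.16-fold higher in carcinoma than in WT (log2 1.11 ± 0.26, 95% interval 0.56 to 1.66, limma adjusted p = 0.011). In adenoma the difference was 0.63 ± 0.26 and did not pass (unadjusted p = 0.0278, adjusted p = 0.155). Carcinoma stood 0.48 ± 0.27 above adenoma (95% interval -0.09 to 1.06), which did not pass. On the linear scale WT arrays had a mean intensity of 3698, adenoma arrays of 5484 and carcinoma arrays of 7652.

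The call of Pcna was kept in all 16 fits that left out 1 array (0.97 to 1.24, adjusted p from 0.00544 to 0.0345), and was lost in 3 of 14 other settings. It was 0.54 ± 0.30 (adjusted p = 0.476) without the 4 WT arrays brightest in spike-in signal, 0.73 ± 0.31 (0.220) with that signal as a covariate and 1.30 ± 0.44 (0.204) with the Gapdh ratio as covariate. The WT arrays left in the first of these, WT 3 and WT 6, were the highest WT arrays of Pcna at 12.30 and 12.39. The 250 bases before the start of Pcna, chr2:132253181-132253430 on the minus strand of GRCm38.p6 by RefSeq, are shown because Pcna carried the call in carcinoma. They held no match to the E2F sequences above and 1 CCAAT box, read on the other strand as ATTGG and given in capitals. The CCAAT sequence is found in 41.06% of all genes with a window and in 17 of 30 replication genes (56.67%).
Pcna: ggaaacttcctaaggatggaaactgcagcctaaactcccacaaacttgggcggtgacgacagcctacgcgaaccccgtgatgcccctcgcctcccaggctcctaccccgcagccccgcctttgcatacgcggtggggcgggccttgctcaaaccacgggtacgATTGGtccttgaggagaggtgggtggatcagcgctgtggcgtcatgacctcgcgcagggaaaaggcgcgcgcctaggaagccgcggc
No match says only that these letters are not in this window.

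**Figure D3:**
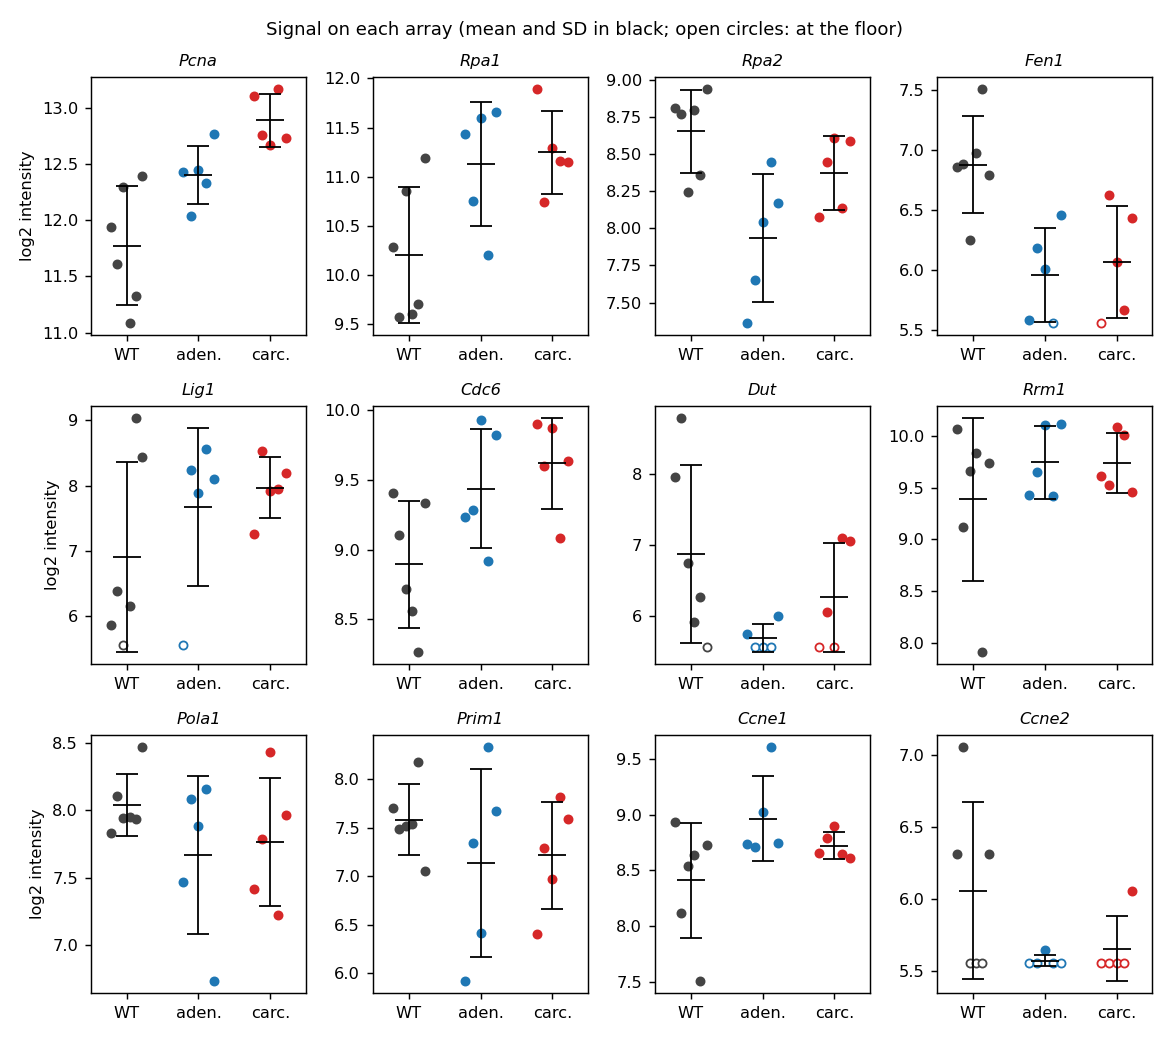
Log2 intensity (y axis, a panel per gene with its own range) on each array of WT (black, n = 6), adenoma (blue, n = 5) and carcinoma (red, n = 5) for 12 replication genes of all roles, with mean and SD as black lines and open circles for arrays at the floor of 5.55. The carcinoma arrays of Pcna, from 12.67 to 13.17, lie above all WT arrays, and in the other panels at least 1 tumour array falls within the WT range.

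The subunits of the single-strand binding protein RPA differed in direction in the fit as reported, where neither passed. Rpa1, its large subunit, had WT values from 9.58 over a median of 10.001 to 11.19. Adenoma arrays read 11.43, 10.76, 11.60, 10.21 and 11.66, and carcinoma arrays read 11.89, 10.74, 11.30, 11.16 and 11.15. WT 3 and WT 6, at 10.86 and 11.19, lay within the tumour range, WT 1 at 10.29 lay just above the lowest adenoma array, and the other WT arrays lay below all tumour arrays. Rpa1 was higher by 0.93 ± 0.35 in adenoma (adjusted p = 0.122) and by 1.04 ± 0.35 in carcinoma (adjusted p = 0.0733), which did not pass. Without WT 6 both passed (adjusted p = 0.0479 and 0.0268), and without adenoma 4 the adenoma difference was 1.16 and passed (adjusted p = 0.0467). With spike-in signal as covariate the adenoma difference was -0.00216 and the carcinoma difference 0.11. Rpa2, the middle subunit, added after its values were seen, had WT values from 8.24 over 8.78 to 8.94. Its adenoma arrays read 7.36, 7.65, 8.05, 8.45 and 8.17, and its carcinoma arrays 8.08, 8.44, 8.61, 8.14 and 8.59. Only adenoma 4 reached the WT range among the adenoma arrays, and 3 of 5 carcinoma arrays did. Rpa2 was at -0.72 ± 0.24 in adenoma (adjusted p = 0.0797) and -0.28 ± 0.24 in carcinoma (adjusted p = 0.512), and without adenoma 4 the adenoma difference was -0.85 and passed (adjusted p = 0.0422).

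The clamp loader subunits Rfc1, Rfc2, Rfc3, Rfc4 and Rfc5 had differences between -0.33 and 0.19 in adenoma and between -0.12 and 0.07 in carcinoma, none of which passed. Their 95% intervals in carcinoma lay between -0.63 and 0.75, so that a change by a log2 unit fell outside each of them in these probe sets. The second probe sets of Rfc1 and Rfc5 gave -0.75 ± 0.41 and -0.74 ± 0.52 in carcinoma. Over the 8 genes of this role the median was -0.14 in adenoma and -0.01 in carcinoma.

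The enzymes of Okazaki fragment processing had opposite signs in both tumours in the fit as reported, where only Fen1 in adenoma passed. Fen1, which cuts the flap left by the previous primer, had WT values from 6.25 over a median of 6.87 to 7.51. Adenoma arrays read 5.58, 6.18, 6.01, 5.55 and 6.46, of which adenoma 4 was at the floor. Carcinoma arrays read 5.55, 6.62, 6.07, 5.66 and 6.43, of which carcinoma 1 was at the floor. The lowest WT array, WT 3 at 6.25, lay within both tumour ranges and the other WT arrays lay above them. Fen1 fell by 0.92 ± 0.28 in adenoma (1.90-fold, 95% interval -1.51 to -0.34, limma adjusted p = 0.047) and stood at -0.81 ± 0.28 in carcinoma (adjusted p = 0.0778), where it passed without WT 3 (-0.94, adjusted p = 0.0476). Carcinoma against adenoma was 0.11 (95% interval -0.50 to 0.72). The adenoma call was close to the threshold. Leaving out any 1 of these arrays ended it: WT 1, WT 2, WT 4, WT 5, WT 6, adenoma 1, adenoma 2, adenoma 3, adenoma 4, carcinoma 3 or carcinoma 4 (over all 16 such fits -1.05 to -0.80, adjusted p from 0.0302 to 0.122). The call was also lost in 9 of 13 other settings, among them quantile normalization (-0.48, adjusted p = 0.370), array medians aligned (-0.60, adjusted p = 0.220) and the fit without the 4 WT arrays brightest in spike-in signal (-0.56, adjusted p = 0.593).

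Lig1, the ligase that seals the fragments, was uneven among WT arrays, which ran from 5.55 over a median of 6.27 to 9.04. Adenoma arrays read 5.55, 8.24, 7.89, 8.56 and 8.11, and carcinoma arrays read 7.26, 8.53, 7.91, 7.95 and 8.20. WT 5 at 9.04 lay above all tumour arrays, WT 6 at 8.44 lay among them, and the other WT arrays and adenoma 1 lay below all other tumour arrays. The difference was 0.77 ± 0.61 in adenoma (adjusted p = 0.475) and 1.07 ± 0.61 in carcinoma (95% interval -0.22 to 2.35, adjusted p = 0.301), and with the Gapdh ratio as covariate it was -1.22 and -0.74. The second probe set of Lig1 gave 0.00 ± 0.26 in adenoma and 0.04 ± 0.26 in carcinoma. This probe set was above the floor of 5.55 on only 7 arrays, with group means from 5.74 to 5.79. The size of a difference is therefore not well measured by it.

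No gene of deoxynucleotide supply passed. Dut, which removes dUTP, had WT values from 5.55 over a median of 6.50 to 8.79. Adenoma 1 read 5.74, adenoma 5 lay at an intensity of 64, and the other adenoma arrays were at the floor of 5.55, and carcinoma arrays read 5.55, 6.04, 5.55, 7.09 and 7.05. The highest arrays were WT 2 and WT 1, and 6 of 16 arrays were at the floor, so the size of a difference of Dut is not well measured. Over the settings tried it ran from -1.55 to -0.09 in adenoma and from -0.87 to 0.39 in carcinoma. The difference was -1.19 ± 0.49 in adenoma (unadjusted p = 0.0248, adjusted p = 0.146) and -0.61 ± 0.49 in carcinoma (adjusted p = 0.469). Rrm1, the large subunit of ribonucleotide reductase, had WT values from 7.91 over a median of 9.70 to 10.07. Adenoma arrays read 9.43, 9.65, 10.11, 9.42 and 10.12, and carcinoma arrays read 9.62, 9.53, 10.09, 10.01 and 9.46. WT 5 at 7.91 stood apart below all others, and the tumour arrays lay within or just above the rest of WT. The difference was 0.36 ± 0.33 (adjusted p = 0.542) and 0.35 ± 0.33 (adjusted p = 0.547). The small subunit Rrm2 was at 0.40 ± 0.43 in both tumours, and thymidine kinase Tk1 at -0.01 ± 0.32 in adenoma and 0.11 ± 0.32 in carcinoma. The second probe set of Tk1 gave 0.50 ± 0.49 in adenoma and -0.02 ± 0.49 in carcinoma.

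No gene of S phase entry passed either. Ccne1, the cyclin that activates Cdk2 before S phase, had WT values from 7.50 over a median of 8.59 to 8.93. Adenoma arrays read 8.74, 8.71, 9.02, 9.61 and 8.75, and carcinoma arrays read 8.66, 8.79, 8.90, 8.65 and 8.61. Every tumour array lay above the WT median, and the ranges overlapped. The difference was 0.56 ± 0.27 in adenoma (unadjusted p = 0.0512, adjusted p = 0.22) and 0.31 ± 0.27 in carcinoma (adjusted p = 0.508). Its relative Ccne2 was above the floor on 5 arrays only, WT 1, WT 2, WT 6, adenoma 3 (5.64) and carcinoma 5 (6.06), with a highest WT value of 7.06. Ccne2 was at -0.49 ± 0.27 in adenoma (adjusted p = 0.301) and -0.40 ± 0.27 in carcinoma (adjusted p = 0.382). E2f1, a transcription factor of the G1 to S transition, was at -0.42 ± 0.25 and -0.14 ± 0.25, and its second probe set at -0.18 ± 0.48 and -0.40 ± 0.48. Slbp, which binds the end of histone mRNA, was at -0.63 ± 0.54 and -0.33 ± 0.54.

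Control measures differed between WT and tumours and moved with the results above. Transcripts spiked into the hybridisation had a mean log2 signal that ran from 12.44 to 14.73 in WT, from 11.38 to 13.47 in adenoma and from 11.56 to 12.70 in carcinoma (exact permutation p = 0.0325 and 0.0238 against WT, both adjusted 0.0487, two-sided). The 4 arrays WT 1, WT 2, WT 4 and WT 5 exceeded all tumour arrays. The log2 ratio of 3' to 5' Gapdh signal, a measure of RNA length after amplification, ran from 4.09 to 5.02 in WT, 5.52 to 6.12 in adenoma and 4.95 to 6.45 in carcinoma (exact p = 0.00216 and 0.00433, both adjusted 0.00649). The adenoma range lay wholly above that of WT, so in the fit with this ratio as a covariate most of the difference between these groups is shared with it. Between the tumours neither measure differed beyond the spread of arrays (exact p = 0.984 and 0.698). The arrays were checked for copies, and 0 pairs held the same values.

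**Figure D4:**
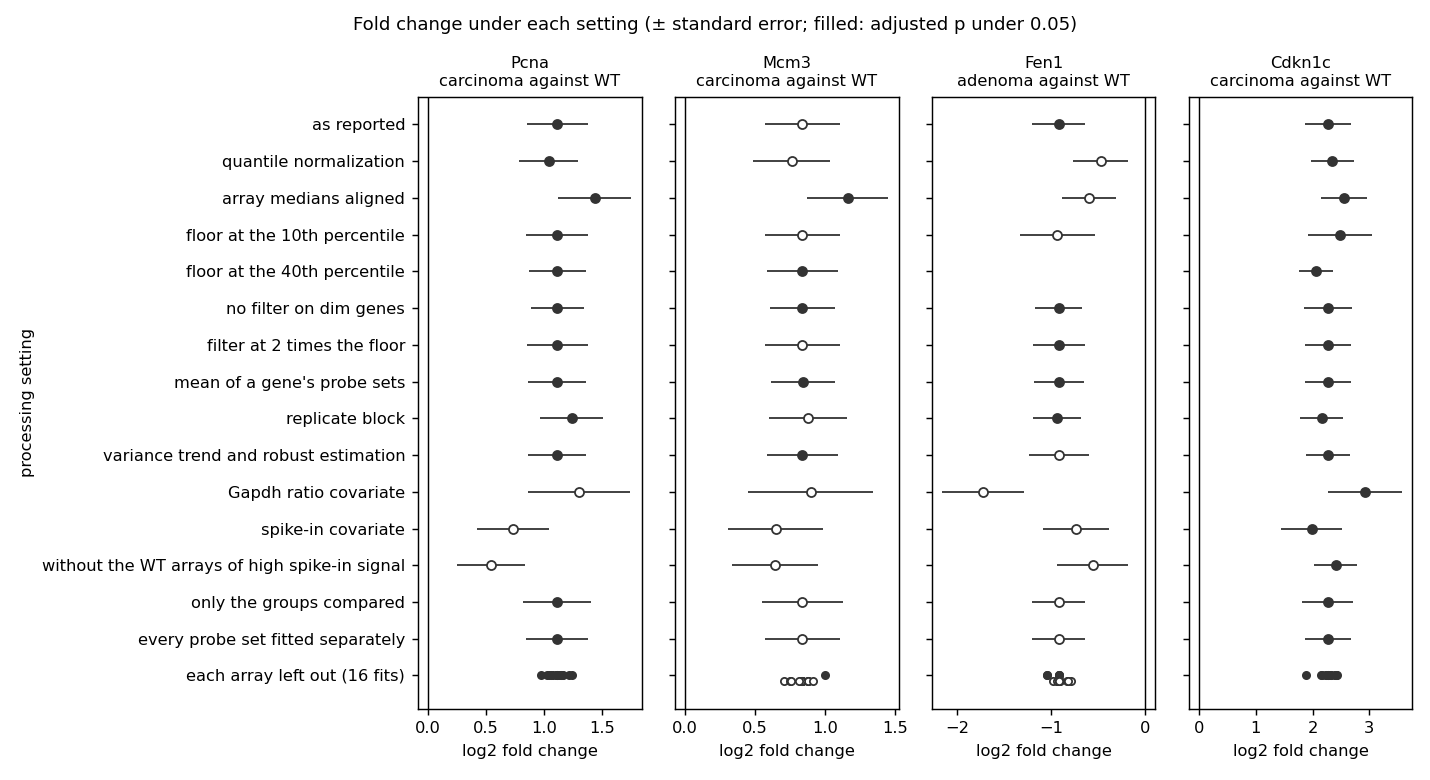
Log2 fold change (x axis) with its standard error (bars) under each processing setting (y axis) for Pcna, Mcm3 and Cdkn1c in carcinoma and Fen1 in adenoma against WT, with filled points where the limma adjusted p is under 0.05; the lowest line holds the 16 fits that each left out 1 array. Cdkn1c is filled throughout, Pcna is open in 3 settings, Mcm3 is filled in 5 settings, and Fen1 is open in 9 settings and has no point at the 40th percentile floor, where it was not tested.

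Related gene lists placed the replication genes beside their surroundings. These lists were written with earlier results of these data known. Of 44 other replication fork and origin genes 33 were tested, and 0 passed in adenoma (limma, beside 8.28% of all genes), where 5 had an unadjusted p under 0.05 (15.2%, beside 23%). In carcinoma 2 rose (6.06%, beside 4.16% of all genes called higher). The median was 0.08 in both. The 2 were the histone chaperone Asf1a (1.18 ± 0.35, adjusted p = 0.0393) and the polymerase epsilon subunit Pole2 (1.08 ± 0.33, adjusted p = 0.0459). Asf1a lost the call without any 1 of WT 1, WT 2, WT 4, WT 5 or carcinoma 1, 2, 3 or 4 (over 16 such fits 1.02 to 1.40, adjusted p up to 0.112), and Pole2 without any 1 of WT 1, WT 2, WT 4, adenoma 3, 4 or 5 or carcinoma 1 to 5 (0.91 to 1.22, adjusted p up to 0.109). Of 14 other settings Asf1a lost the call in 6 and Pole2 in 8. Of 30 other nucleotide synthesis genes 21 were tested, and 0 passed in adenoma (limma, beside 8.28%), where 3 had an unadjusted p under 0.05 (14.3%, beside 23%). In carcinoma 1 rose (4.76%, beside 4.16%), the CTP synthase Ctps (0.94 ± 0.23, adjusted p = 0.0153), which lost the call in the 3 settings that did so for Pcna (adjusted p up to 0.413).

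Among 30 tested regulators of the G1 to S transition, 2 rose and 1 fell in each tumour, 10% of them, near the 8.28% and 9.05% of all genes. Cdkn1c, an inhibitor of cyclin-dependent kinases, had WT values from 5.55 over a median of 7.90 to 8.28, adenoma values from 9.74 to 10.86 and carcinoma values from 9.12 to 10.17, so the tumours lay wholly above WT. It rose 6.90-fold in adenoma (2.79 ± 0.41, adjusted p = 0.000247) and 4.82-fold in carcinoma (2.27 ± 0.41, adjusted p = 0.00127), and this call was kept in all 14 other settings and all 16 fits without 1 array. Skp1, a subunit of SCF ubiquitin ligases, rose by 1.11 ± 0.23 in adenoma (adjusted p = 0.00427) and 0.95 ± 0.23 in carcinoma (adjusted p = 0.0122). Cyclin Ccnd2 fell by 1.54 ± 0.42 in adenoma (adjusted p = 0.0291, lost without WT 2, WT 3 or adenoma 2, over 16 such fits -1.77 to -1.05, adjusted p up to 0.0746). Ccnd2 also lost the call with array medians aligned, with only the groups compared, with the Gapdh ratio as covariate and without the 4 WT arrays (adjusted p up to 0.684). The kinase inhibitor Cdkn2b fell by 1.38 ± 0.26 in carcinoma (adjusted p = 0.00209). Skp1 and Cdkn2b lost their calls without the 4 WT arrays brightest in spike-in signal and with the Gapdh ratio as covariate (adjusted p up to 0.233).

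Of 36 tested mitosis genes 2 rose in adenoma (5.56%, beside 4.02% of all genes called higher) and 4 in carcinoma (11.1%, beside 4.16%), and 0 fell. The spindle checkpoint gene Mad2l1 rose by 1.20 ± 0.29 in adenoma (adjusted p = 0.0138) and 1.32 ± 0.29 in carcinoma (adjusted p = 0.00638), and the tubulin Tubb5 by 1.83 ± 0.37 and 1.41 ± 0.37 (adjusted p = 0.00356 and 0.0199; in carcinoma 0.058 without carcinoma 5). Prc1 and Kif4, which act on the central spindle, rose in carcinoma by 0.86 ± 0.25 (adjusted p = 0.0367) and 0.88 ± 0.26 (adjusted p = 0.0376), and each lost the call without any 1 of 8 arrays and in 5 of 14 other settings. Mad2l1 and Tubb5 lost their calls without the 4 WT arrays brightest in spike-in signal and with the Gapdh ratio as covariate (adjusted p up to 0.546 and 0.902), and Mad2l1 did so in both tumours with spike-in signal as covariate too. Of 15 tested crypt and stem cell genes 2 passed with higher means in adenoma (13.3%, beside 4.02%) and 3 in carcinoma (20%, beside 4.16%), and 1 of these in each tumour was Tnfrsf19, which could enter the test through its tumour arrays alone. In adenoma 10 of the 15 lay above 0 (beside 40.1% of all genes; median 0.41, lowest -0.67). In carcinoma 11 did (beside 41.1%, median 0.38, lowest -0.70), and the others lay below WT. Prom1, a surface protein of crypt cells, rose by 2.48 ± 0.34 and 3.21 ± 0.34 (adjusted p = 0.000124 and 5.54e-06), in all settings tried. Tnfrsf19 stayed at the floor in each WT array and was above it on all 10 tumour arrays, with values up to 7.59 in adenoma and 8.36 in carcinoma, at least 2.63-fold higher on average in both. Since it passed the filter on dim genes only where it is high, no call is read from its test. Cdca7 rose in carcinoma by 1.15 ± 0.35 (adjusted p = 0.0468) and lost the call without any 1 of 10 arrays and in 7 of 14 other settings. None of these lists had a gene past the test between carcinoma and adenoma.

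Markers of other cell states moved with the groups as well. The 16 epithelial markers were all on the array, and 13 or 14 of them were above the floor on all arrays of any one group. Their summed intensity ran from 108423 to 227603 in WT, from 80220 to 120461 in adenoma and from 61309 to 135218 in carcinoma. Of these 16, 2 fell in each tumour (12.5%, beside 4.25% and 4.9% of all genes called lower) and 0 rose. The summed intensity of 16 mature enterocyte markers, which mark the villus cells that do not divide, ran from 11412 to 40062 in WT, from 3327 to 27054 in adenoma and from 2023 to 4944 in carcinoma, and 5 of 16 fell in adenoma (31.2%, beside 4.25% of all genes called lower) and 7 in carcinoma (43.8%, beside 4.9%). The sum of 18 lymphocyte markers ran from 2236 to 4148 in WT, 1273 to 2037 in adenoma and 1329 to 2603 in carcinoma, and of 15 tested 3 fell in adenoma (20%, beside 4.25%), 1 in carcinoma (6.67%, beside 4.9%) and 0 rose. The sum of 15 fibroblast markers ran from 7714 to 14346, 9494 to 15166 and 12476 to 22162, and of 14 tested 1 rose in adenoma (7.14%, beside 4.02%), and 3 rose (21.4%, beside 4.16%) and 1 fell in carcinoma. The sum of 9 smooth muscle markers ran from 5244 to 8980, 3383 to 7421 and 2689 to 3663. Of 8 tested, 1 rose (12.5%, beside 4.02%) and 2 fell (25%, beside 4.25%) in adenoma, and 2 fell in carcinoma (25%, beside 4.9%). The sum of 17 macrophage and neutrophil markers ran from 5311 to 20528, 7138 to 14305 and 10005 to 16136.5, and 0 of 14 tested passed in either tumour. That of 10 endothelial markers ran from 3428 to 6812, 4869 to 11244 and 4308.5 to 11649, and 1 of 10 rose in adenoma (10%, beside 4.02%) and 0 in carcinoma. Their part in the values of the replication genes was not tested. In captures of many cells, fewer dividing cells and less RNA of a gene per cell cannot be told apart.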

How the data were processed

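Laser-captured ileal epithelium of 16 samples was measured on 1-colour arrays, and groups were read from the sample titles. The authors deposited 1 intensity per probe set, on a linear scale; the sources used here do not name the software that computed it. Trimmed of 2% at either end, array means fell from 499 to 500. The values were therefore treated as already scaled by the authors and not normalized again. Signal medians ran from 126.8 to 234.2, and the number of arrays limits the precision.

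The tests left out 66 control probe sets, and 10833 of 12488 probe sets had a single gene symbol. Intensities under the 25th percentile of all values (46.9) were set to it and log2 was taken, so the size of a fold change near this floor is not well measured. The probe set with the highest mean stood for a gene, and a gene was tested where 5 or more of 16 arrays exceeded the floor. All 16 arrays were fitted together by lmFit and eBayes of limma 3.58.1 under R 4.3.3 (two-sided, 95% intervals, 13 degrees of freedom left), with Benjamini-Hochberg adjustment over 7455 genes and a threshold of 0.05. The fit was tested on simulated data. Control measures were compared with exact permutation tests (scipy 1.17.1), adjusted over the 3 group pairs, and plots were made in Python 3.11.15 with matplotlib 3.10.9.

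Promoter sequences came from RefSeq (GRCm38.p6). Values on every array are given for genes past the threshold and for the 2 genes with the smallest p of each role, and from each related list up to 4 called genes are named. The genes and lists were chosen with earlier results of these data known. Alternatives were quantile normalization, no filter, a filter set 2 times higher than the floor, aligned array medians, a floor at the 10th or the 40th percentile, averaging a gene's probe sets, a replicate block, a variance trend with robust estimation, the Gapdh ratio or the spike-in signal as a covariate, leaving out the 4 WT arrays with a high spike-in signal, fitting only the 2 groups compared, and leaving out each array. A fit of every probe set as its own feature was added after seeing the data.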

Additional observations from a re-analysis of the deposited data

Results flagged for a closer look

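In groups of 5 or 6 arrays, 36 groups of the 12 genes named by rule were searched for an array far from the others, and 3 were found. Chance flags about 1 in 20 groups of untied values, a rate that does not apply to the 2 groups of Ccne2, where all other arrays were tied at the floor. Lig1 on adenoma 1 was at the floor of 5.55, while the other adenoma arrays ran from 7.89 to 8.56. Ccne2 read 5.64 on adenoma 3 and 6.06 on carcinoma 5, while the other arrays of these groups were at 5.55, so these 2 arrays are the tumour arrays on which Ccne2 was above the floor.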

How the results depend on the processing

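The count of replication genes past the test in adenoma against WT (1 as reported) was 0 with quantile normalization, aligned medians, the floor at the 40th percentile, the variance trend, either covariate, without the 4 WT arrays brightest in spike-in signal and with only the groups compared, 2 with no filter (Fen1 and Rpa2), and 0 to 2 without 1 array. With the floor at the 10th percentile it was 1, but the gene was Mcm6 in place of Fen1, and no call is read for Mcm6. In carcinoma (1 as reported) it was 4 with aligned medians (Cdc6, Mcm3, Pcna, Rpa1), 3 with the variance trend, 2 with the floor at the 40th percentile, no filter or the mean of probe sets, 0 with either covariate and without the 4 WT arrays, and 1 to 3 without 1 array. The count between carcinoma and adenoma was 0 in each of the 13 alternatives and 16 fits without 1 array. The medians of the replication genes became 0.31 and 0.39 with aligned medians, and in adenoma were as low as -0.14 (Gapdh covariate). The count over all genes was 70, 398 and 181 in adenoma and 100, 382 and 209 in carcinoma with the Gapdh covariate, the spike-in covariate and without the 4 WT arrays, and without 1 array it ran from 384 (without adenoma 5) to 674 and from 494 to 773. Between the tumours (2 as reported) it was 0 and 5 with the floors at the 10th and 40th percentile, 1 with no filter, 6 without the 4 WT arrays and with only the groups compared, and 1 to 5 without 1 array. Signs turned for Pola1 in carcinoma (0.049 with aligned medians), Lig1 (-1.22 in adenoma and -0.74 in carcinoma with the Gapdh covariate), Dut in carcinoma (0.39, 0.21 and 0.11 with the Gapdh covariate, the spike-in covariate and without the 4 WT arrays), and with the spike-in covariate for Rpa1 (-0.00216 in adenoma), Rrm1 (-0.18 and -0.19) and Prim1 (0.34 and 0.42), none of them past the test. The cause was not tested.

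The replicate numbers were not taken to pair arrays. Deviations of same-numbered arrays correlated between -0.27 and 0.40, 7 of 15 pairs were over 0.1, and 5 of 15 arrays correlated best with an array of their own number. With the replicate number as a block, 2 replication genes passed in adenoma (Fen1, Rpa1) and 3 in carcinoma (Mcm4, Pcna, Rpa1), of 728 and 842 genes in all, and WT 6, which has no partner, drops out of that fit. Probe sets near the floor do not measure the size of a difference well, which limits the lower means of Fen1, Dut, Ccne2 and Mcm6 and the higher means of Lig1.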
